A study of Danio rerio with 15 samples.

Results

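The genes described here mostly encode cell adhesion molecules and the catenins that bind them. The families are cadherins, protocadherins, Fat cadherins, catenins, NCAM, L1, contactins and Alcam. Nectins with Cadm and junctional adhesion molecules, neurexins with neuroligins, and lrrn1 complete the set. Ctnnbip1 and ctnnbl1 encode neither kind of protein and are counted by their catenin name. The genes were chosen by a pattern in the gene symbol, from the probe sets with a single symbol in the array's annotation. Nrxn1a was left out. The pattern was set with earlier results of these data known, so the counts below give no independent support. The choice gave 44 genes of 8793 on the array. Of these, 34 had 1 probe set and 10 had more, and each gene was read from its brightest probe set, by the mean of the 15 arrays. A further 3 probe sets for catenins or clustered protocadherins carry several symbols and were not used.

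Cadherins bind cadherins on neighbouring cells through calcium. Inside the cell they are held to actin by β-catenin and α-catenin, and p120-catenin keeps them at the cell surface. Immunoglobulin-type molecules such as NCAM, L1, the contactins and Alcam guide and bundle growing axons without needing calcium. Nectins, Cadm proteins, and the neurexin and neuroligin partners join cells across junctions and synapses, and in the spinal cord these families sort axons and choose synaptic partners.

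Expression was measured on the Affymetrix Zebrafish Genome Array in cells sorted by flow cytometry from the dissected trunk of zebrafish embryos at 27 h post fertilisation. V1 cells (also called CiA, inhibitory interneurons with ascending axons that express Engrailed) were the fluorescent cells of Tg(pax2a:GFP) embryos and gave 6 arrays. All spinal neurons were the fluorescent cells of Tg(elavl3:EGFP) embryos and gave 5 arrays, and trunk cells sorted as a whole, with no transgenic line in their labels, gave 4 arrays. The series' design text calls the arrays of each group biological replicates.

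All embryos were raised at 28.5 °C for the first 10 h and then at 32 °C, and RNA from every sort was amplified in successive rounds before labelling. For the V1 arrays the kidney (pronephros) region, where pax2a is also active, was cut away before sorting. The pax2a transgene marks every cell in which it is active, the elavl3 transgene marks postmitotic neurons of all classes, and the trunk includes muscle, skin, blood, notochord and neural cells. V1 cells are thus also among all neurons, and neurons are among the trunk cells. In sorted pools such as these, a lower level can mean fewer cells with the transcript or less of it per cell, and these cannot be told apart.

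All values are log2 intensities after robust multi-array averaging (RMA), so 1 unit is 1 doubling. A gene is called higher or lower where limma's moderated test gave a Benjamini-Hochberg adjusted p under 0.05 over all 15502 non-control probe sets in that comparison. Levels of different genes are not compared, because probe sets differ in brightness. The median of all values was 5.52. Of the 44 genes, 15 lay below that median in the mean of every group, where signal above background is not known, so for these only a difference in signal is given.

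The labels were checked first. The V1 transcription factor en1b had a level of 11.25 ± 0.24 (SD, n = 6) in V1 arrays, 9.64 ± 0.20 (n = 5) in all neurons and 8.13 ± 0.16 (n = 4) in trunk. For pax2a the brighter probe set gave 8.12 ± 0.49, 6.82 ± 0.20 and 5.30 ± 0.23 in the same order, and a dimmer one was not called. The brightest elavl3 probe set gave 10.60 ± 0.40 in V1, 10.47 ± 0.41 in all neurons and 8.91 ± 0.40 in trunk. Another elavl3 probe set was lower in V1 than in all neurons, by -2.87 (adjusted p = 6.94e-05). Within each group the arrays correlated at 0.979 or more.

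Markers of other cells also differed between the groups. In V1 arrays the mean level of 6 red cell genes was 7.83 to 9.35, of 5 vessel genes 6.27 to 7.44 and of 5 neural crest and pigment genes 8.93 to 10.07. In all-neuron arrays these ranges were 4.60 to 4.91, 4.51 to 4.78 and 6.18 to 6.92. In trunk arrays they were 8.04 to 8.95, 6.29 to 6.85 and 7.85 to 8.76. No red cell or vessel gene was called between V1 and trunk, and all 5 neural crest and pigment genes were higher in V1. Mean levels of 12 muscle genes were 6.95 to 7.92 in V1, 9.39 to 9.65 in all-neuron arrays 1 to 3, 7.75 and 7.99 in all-neuron arrays 4 and 5, and 11.13 to 11.34 in trunk. Mean levels of 10 notochord and floor plate genes were 4.42 to 5.56 in V1, 6.38 to 6.92 in all neurons and 6.13 to 6.58 in trunk. For 7 progenitor genes the mean level was 9.18 in V1 array 3 and 8.13 to 8.85 in the other V1 arrays. It was 9.00 to 9.08 in all-neuron arrays 1 to 3, 8.49 and 8.55 in arrays 4 and 5, and 8.52 to 8.79 in trunk. The part of these cells in the results was not tested.

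Across the 3 comparisons, 31 of the 44 genes were called at least once, and 13 (29.5%) in none, against 39.3% of all 8793 genes read from their brightest probe sets, which give every background share below. All spinal neurons had 18 adhesion genes above trunk (40.9% of the 44, against 20.8% of all genes) and 6 below (13.6% against 25.4%). V1 cells had 16 above trunk (36.4% against 23.3%) and 7 below (15.9% against 20.6%). Against all neurons, V1 cells had 6 genes higher (13.6% against 15.2%) and 9 lower (20.5% against 9.02%).

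Larger differences, of 1 log2 unit or more, were counted as well. In all neurons against trunk 11 adhesion genes were that much higher and 3 that much lower, where the shares of all genes were 6.78% and 9.60%. For V1 against trunk the counts were 8 and 1 (background 6.16% and 5.77%), and for V1 against all neurons 2 and 4 (background 3.97% and 2.10%). The arrays of the groups did not overlap for 22 genes in all neurons against trunk (background 41.3%), for 14 in V1 against trunk (background 29.6%) and for 11 in V1 against all neurons (background 14.7%).

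The shares called above trunk were over their background in both neuron pools, and so was the share called lower in V1 than in all neurons. V1 and all neurons were each compared with the same 4 trunk arrays, so these comparisons are not independent. The median difference of the 44 genes was 0.16 for all neurons against trunk and 0.12 for V1 against trunk, where the medians of all probe sets were -0.03 and -0.02. For V1 against all neurons it was -0.08 beside -0.01. The medians of all probe sets cover 15502 probe sets, dim ones included, and not only the brightest of each gene. Over the 8492 brighter probe sets kept by a filter they were 0.06, 0.14 and 0.03 in the same order. Neither set is matched in brightness to the 44 genes. Adhesion genes also lay above the median of all values about as often as other genes. This was so in at least 1 group for 29 of 44, and for 65.2% of all genes with 1 symbol.

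**Figure D1:**
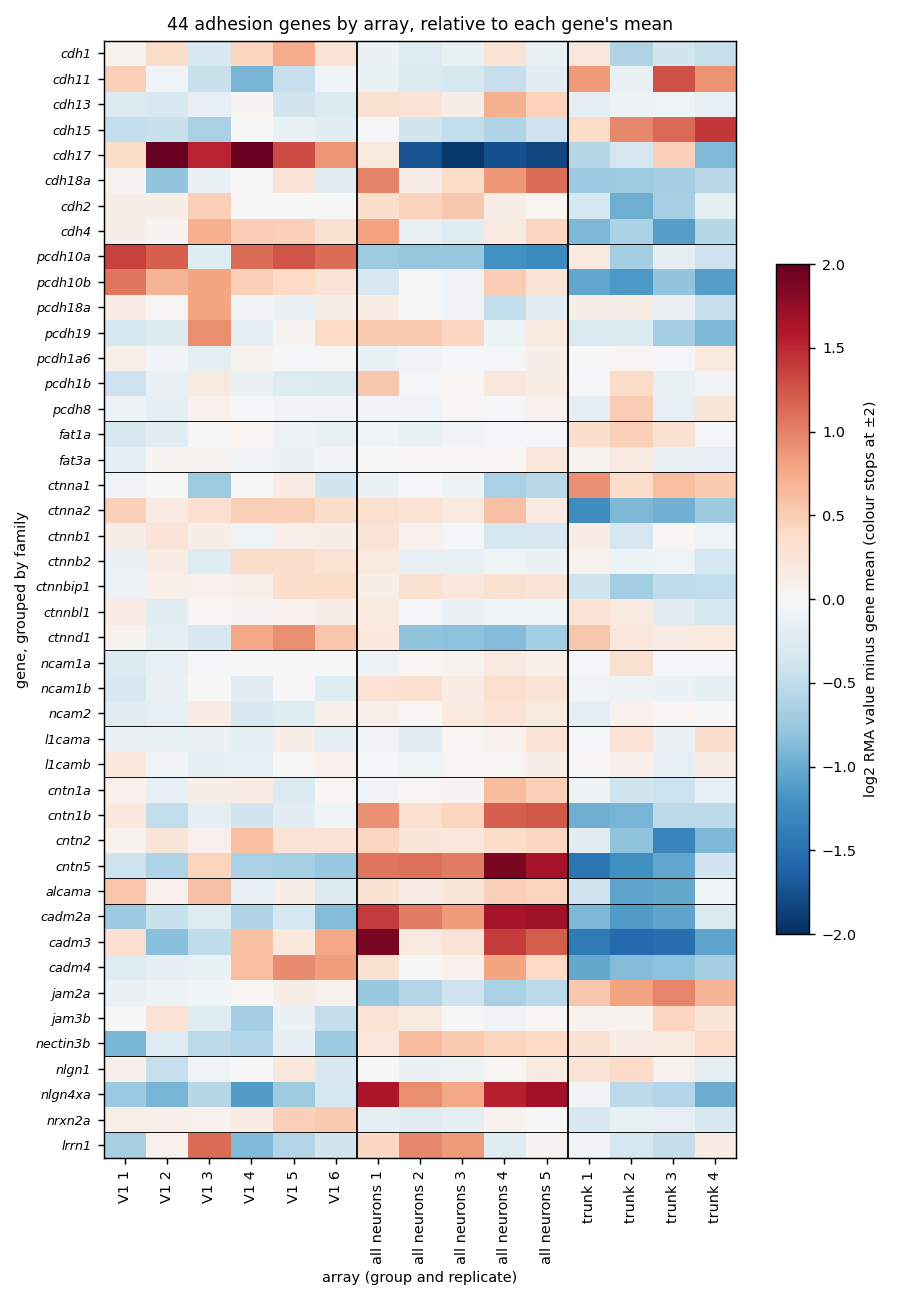
Log2 RMA value of each adhesion gene on each of the 15 arrays, minus the gene's mean over the arrays, with genes in families from top to bottom and arrays in their 3 groups from left to right; red is above and blue below the gene's mean. Cntn1b, cntn5, cadm2a, cadm3 and nlgn4xa are reddest in the all-neuron arrays, cdh17 and pcdh10a in the V1 arrays, and cdh11, cdh15 and jam2a in the trunk arrays.

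Sorting the genes by their calls gave a few patterns. Higher in both neuron pools than in trunk were 12 genes (27.3% against 15.3% of all genes): alcama, cadm3, cadm4, cdh18a, cdh2, cdh4, cntn1b, cntn2, ctnna2, ctnnbip1, pcdh10b and pcdh19. Lower in both were cdh11, cdh15, ctnna1, fat1a and jam2a (11.4% against 15.3%). Higher in all neurons than in both V1 and trunk were 7 genes (15.9% against 5.41%): cadm2a, cdh13, cdh18a, cntn1b, cntn5, ncam1b and nlgn4xa. Higher in V1 than in both other groups were cdh17, nrxn2a, pcdh10a and pcdh10b (9.09% against 5.64%), and of the 44 only nectin3b was lower in V1 than in both (2.27% against 2.83%). Lower in all neurons than in both other groups were ctnnd1 and jam2a (4.55% against 9.22%).

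**Figure D2:**
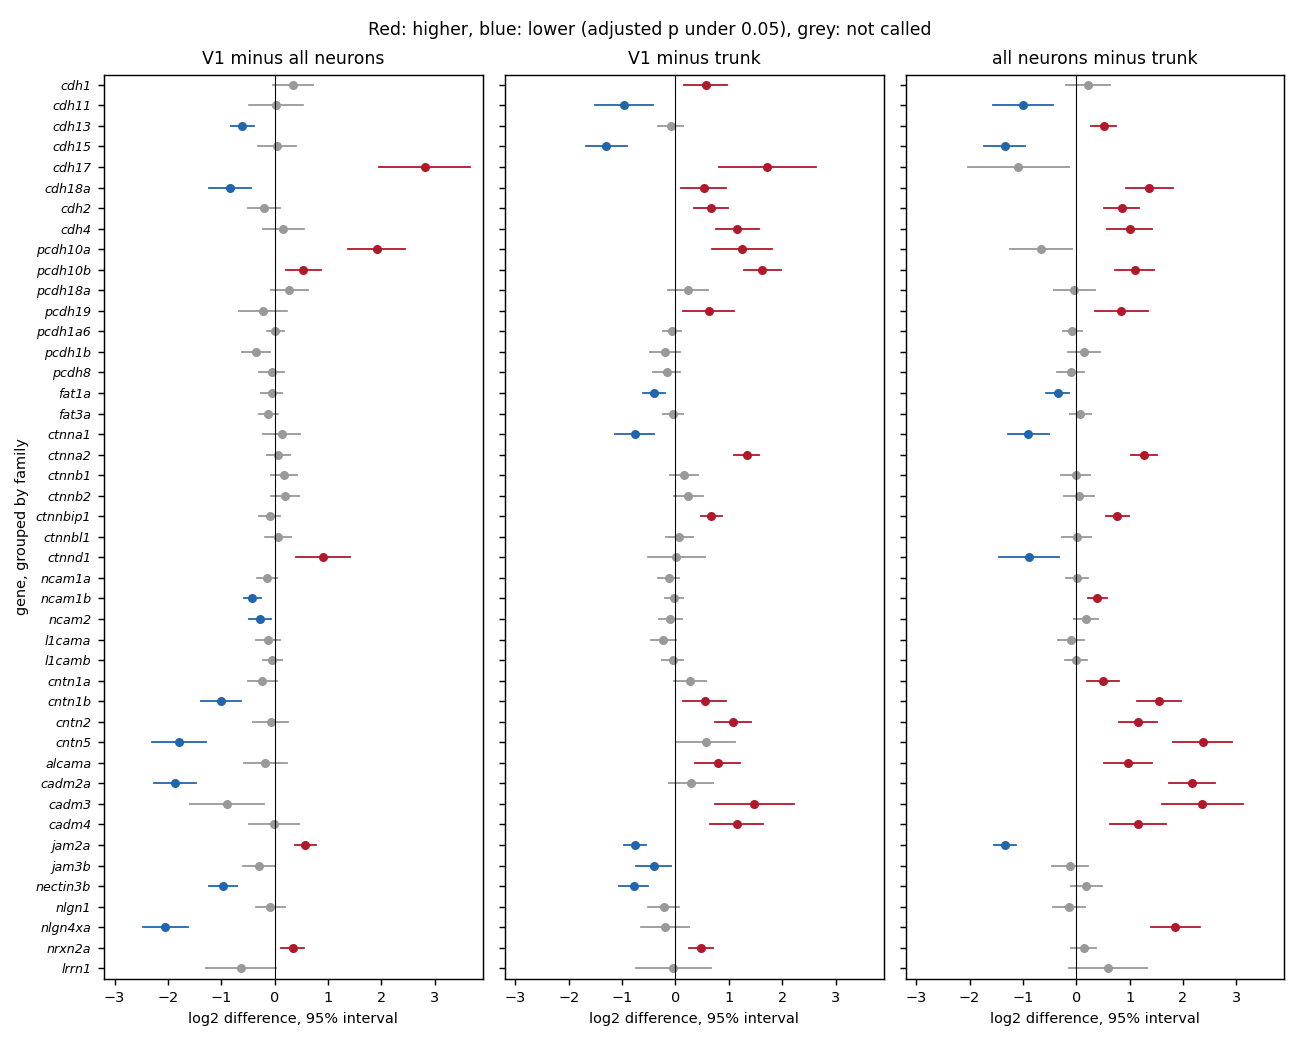
Log2 difference of each adhesion gene with its 95% interval (horizontal axis) in the 3 comparisons (panels), with genes in families from top to bottom; red points were called higher, blue lower and grey neither. Called genes lie mostly to the right of 0 in both comparisons with trunk (16 against 7, and 18 against 6), and in the V1 against all neurons panel 9 lie to the left and 6 to the right.

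Among the 8 cadherins, 4 were higher and 2 lower in all neurons than in trunk, where 20.8% of all genes were higher and 25.4% lower. Cdh2 (N-cadherin, the main cadherin of the neural tube) read 10.18, 9.57, 9.87 and 10.34 in the trunk arrays. In all neurons it read 10.90, 10.998, 11.08, 10.67 and 10.58, and in V1 it ran from 10.53 through a median of 10.59 to 11.02. Every neuron array thus lay above every trunk array. The difference from trunk was 0.85 in all neurons (SE 0.16, adjusted p = 0.000325) and 0.66 in V1 (SE 0.15, adjusted p = 0.0023). V1 and all neurons overlapped, with a difference of -0.19 (95% interval -0.49 to 0.11, adjusted p = 0.376). The dimmer cdh2 probe set had differences from trunk of 0.56 and 0.53 that were not called, and the V1 difference was 0.34 (adjusted p = 0.0588) after cyclic loess normalisation.

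Cdh4 (R-cadherin, a close relative of N-cadherin in neural tissue) read 6.09, 6.36, 5.89 and 6.43 in trunk. The all-neuron arrays read 7.79, 6.85, 6.74, 7.16 and 7.42, and V1 ran from 7.05 through 7.38 to 7.70. The neuron pools again lay wholly above trunk. Cdh4 was 1.00 higher in all neurons (SE 0.20, adjusted p = 0.000646) and 1.16 higher in V1 (SE 0.19, adjusted p = 0.000148). Between the neuron pools the difference was 0.16 (95% interval -0.22 to 0.54).

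Cdh18a belongs to the type II cadherins, whose mammalian counterpart is found in brain. Its trunk arrays were close together at 6.02, 6.05, 6.08 and 6.21, and all neurons read 7.75, 6.89, 7.13, 7.63 and 7.87. V1 arrays ran from 5.97 through 6.69 to 7.01, between the other groups and overlapping both. All neurons exceeded trunk by 1.37 (SE 0.21, adjusted p = 5.92e-05), and V1 was below all neurons by -0.84 (SE 0.19, adjusted p = 0.00429). The smaller excess of V1 over trunk, 0.53 (adjusted p = 0.0451), lost its call without any 1 of V1 arrays 1, 3, 4, 5 or 6 or of the 4 trunk arrays, with adjusted p from 0.0588 to 0.0977.

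The cadherins lower in both neuron pools are known from mesenchyme and muscle. Cdh11, a cadherin of mesenchymal cells, was -1.001 in all neurons (adjusted p = 0.00605) and -0.97 in V1 (adjusted p = 0.00647) relative to trunk, and its second probe set had -0.59 in each. Trunk array 2, at 8.18, fell among the neuron arrays, and the other trunk arrays stood at 9.18 to 9.60. Cdh15, the muscle cadherin, had a trunk signal of 3.87 to 4.92 and a neuron signal of 2.87 to 3.50, all below the median of all values. Its difference was -1.34 in all neurons (adjusted p = 2.28e-05) and -1.30 in V1 (adjusted p = 2.89e-05). The muscle list moved the same way, with 12 of 12 genes lower in each neuron pool than in trunk.

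With all-neuron arrays 4 and 5 alone, the cdh15 difference from trunk was -1.47 (adjusted p = 0.000362). Between V1 and all neurons cdh15 differed by 0.05 (adjusted p = 0.878), where 9 of the 12 muscle genes were lower in V1. The part of muscle cells in the cdh15 result was not tested. The remaining cadherins moved less. Cdh1 (E-cadherin, the epithelial cadherin) was 0.57 higher in V1 than in trunk (adjusted p = 0.0242), with overlapping arrays, and lost the call without V1 array 5 or trunk array 2, 3 or 4 (adjusted p 0.0524 to 0.0922). Its mean was 7.70 ± 0.36 in trunk and 8.27 ± 0.35 in V1. Cdh13 (T-cadherin, which is held to the membrane by a lipid anchor) was a dim signal, at 3.53 to 4.11 in all neurons and 3.02 to 3.44 in all other arrays. It was 0.51 higher in all neurons than in trunk (adjusted p = 0.00166), and V1 was at -0.60 to all neurons (adjusted p = 0.000516).

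Cdh17 had the largest difference of any of the 44 genes between V1 and all neurons. In zebrafish this cadherin is a known product of the pronephric ducts. V1 arrays ran from 6.37 through a median of 7.42 to 8.24, the all-neuron arrays read 6.20, 4.26, 4.08, 4.24 and 4.18, and trunk read 5.44, 5.68, 6.48 and 5.12. Every V1 array lay above every all-neuron array, and all-neuron array 1 stood well above the rest of its group. V1 exceeded all neurons by 2.81 (SE 0.40, adjusted p = 0.000111, a 7.01-fold difference) and trunk by 1.72 (SE 0.43, adjusted p = 0.00453). All neurons were at -1.09 to trunk (adjusted p = 0.0627), which became -1.49 (adjusted p = 0.00338) without all-neuron array 1.

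Some of the other pronephros markers were also higher in V1. Of 6 measured genes of that list (8 listed besides cdh17), 4 were higher in V1 than in all neurons and none was lower. These were the ion transporter genes slc4a2a (4.41) and atp1a1a.4 (4.37), the phosphate transporter slc20a1a (1.54) and the channel trpm7 (0.47). The mean level of the 6 genes was 6.28 to 6.99 in V1, 5.44 in all-neuron array 1, 4.63 to 4.76 in all-neuron arrays 2 to 5 and 5.56 to 5.83 in trunk. Pax8 and emx1, also on the list, were called in no comparison. Against trunk, 3 of the 6 genes were higher and none lower in V1. In all neurons 1 was higher and 2 were lower than in trunk (list median -0.32). The part of pronephric cells in the cdh17 result was not tested. With trunk arrays 3 and 4 alone, the V1 excess over trunk was 1.60 (adjusted p = 0.0569).

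**Figure D3:**
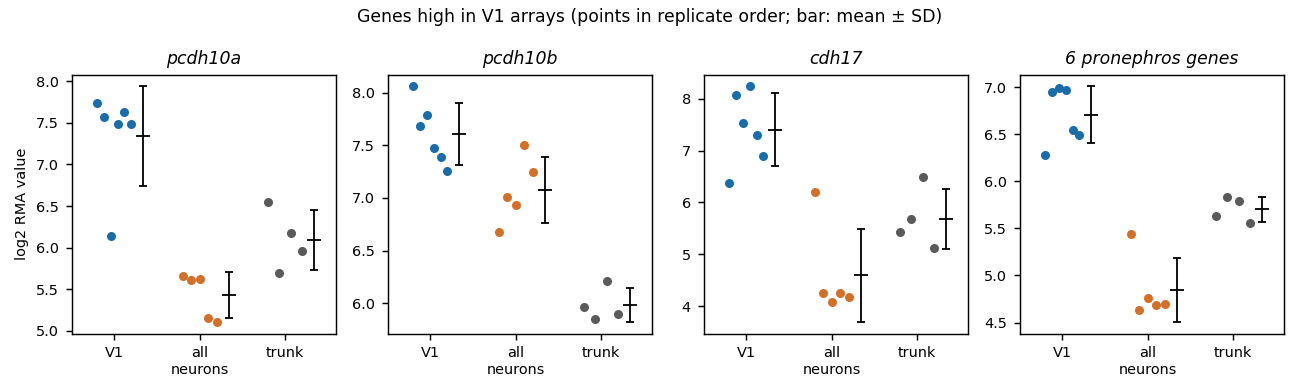
Log2 RMA value on each array (points, in replicate order) with mean ± SD (black bar) for pcdh10a, pcdh10b and cdh17, and in the last panel the mean level of 6 pronephros genes without cdh17. V1 arrays stand above all-neuron arrays for pcdh10a, cdh17 and the pronephros genes, and all-neuron array 1, the first orange point, is the highest of its group for cdh17 and the pronephros genes.

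The 7 protocadherins held both genes of the pcdh10 pair among those high in V1. Protocadherin-10 (OL-protocadherin) is a non-clustered protocadherin with roles in axon growth in mice. For pcdh10a, V1 arrays ran from 6.14 through 7.53 to 7.74, where array 3 was the lowest and the other arrays lay at 7.48 or more. All neurons read 5.66, 5.61, 5.62, 5.15 and 5.11, and trunk read 6.55, 5.69, 6.18 and 5.96. V1 lay wholly above all neurons, and V1 array 3 fell within the trunk range. The difference was 1.91 from all neurons (SE 0.25, adjusted p = 4.48e-05) and 1.25 from trunk (SE 0.26, adjusted p = 0.00136).

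Without V1 array 3 these differences were 2.15 and 1.49. Neural crest and pigment genes, 5 of 5 higher in V1 than in each other group, had mean levels of 8.93 to 10.07 in V1, 7.85 to 8.76 in trunk and 6.18 to 6.92 in all neurons. The 6 pronephros genes had mean levels of 6.28 to 6.99 in V1, 5.56 to 5.83 in trunk and 4.63 to 5.44 in all neurons, with 4 higher in V1 than in all neurons and 3 higher than in trunk. On V1 array 3, where pcdh10a was lowest, the 2 lists went opposite ways. Its neural crest and pigment level was the lowest in V1, at 8.93 (others 9.54 to 10.07). Its pronephros level was the highest in V1, at 6.99 (others 6.28 to 6.96). The part of either list in the pcdh10a result was not tested. All neurons were at -0.66 to trunk, not called (adjusted p = 0.0664) although the arrays did not overlap, and called at -0.80 (adjusted p = 0.0475) without trunk array 2. It was also called at -0.66 (adjusted p = 0.00401) without V1 array 3, which enters through the shared estimate of spread. The result rests on 1 of 3 pcdh10a probe sets: the other 2 were dim, were not called between V1 and all neurons (-0.04 and 0.05), and 1 of them was lower in V1 than in trunk (-0.24, adjusted p = 0.0255). Averaged over the 3 probe sets, the V1 excess over all neurons was 0.64 (adjusted p = 0.000149) and over trunk 0.32 (adjusted p = 0.0201).

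Its paralog pcdh10b differed in another way, being high in both neuron pools. V1 ran from 7.26 through 7.58 to 8.06, all neurons read 6.68, 7.01, 6.93, 7.50 and 7.25, and trunk read 5.97, 5.85, 6.21 and 5.90. Trunk lay below every neuron array, and V1 overlapped all neurons. V1 exceeded trunk by 1.63 (SE 0.17, adjusted p = 1.37e-06), and all neurons exceeded it by 1.09 (SE 0.17, adjusted p = 8.14e-05). V1 was 0.54 above all neurons (SE 0.16, adjusted p = 0.0207). That last call was lost without all-neuron array 1 (0.44, adjusted p = 0.0558) or array 3 (0.50, adjusted p = 0.0515), and with all-neuron arrays 4 and 5 alone the difference was 0.24 (adjusted p = 0.434).

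Pcdh19, which zebrafish need for early brain morphogenesis, was 0.84 higher in all neurons than in trunk (adjusted p = 0.00828) and 0.62 higher in V1 (adjusted p = 0.0376). The V1 call was lost without V1 array 3, 5 or 6 or trunk array 3 or 4 (adjusted p 0.0555 to 0.123). With all-neuron arrays 4 and 5 alone, the all-neuron difference was 0.58 (adjusted p = 0.184). Pcdh18a, pcdh1a6, pcdh1b and pcdh8, the last known as paraxial protocadherin, were called in no comparison, and their differences ran from -0.35 to 0.28. The lowest of these, pcdh1b in V1 against all neurons (adjusted p = 0.0622), was called without V1 array 3 (-0.42, adjusted p = 0.0222) or all-neuron array 2 (-0.40, adjusted p = 0.0467).

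The 2 Fat cadherins, large relatives of a Drosophila growth regulator, were dim on every array. Fat1a read 4.82, 4.95, 4.77 and 4.45 in trunk, 4.39, 4.34, 4.41, 4.43 and 4.46 in all neurons, and 4.15 through 4.35 to 4.52 in V1. Only trunk array 4 fell within the neuron range. Its signal was -0.40 in V1 (SE 0.10, adjusted p = 0.00399) and -0.34 in all neurons (SE 0.10, adjusted p = 0.0123) relative to trunk. With trunk arrays 3 and 4 alone these were -0.26 (adjusted p = 0.102) and -0.21 (adjusted p = 0.198), and with all-neuron arrays 4 and 5 alone the second was -0.31 (adjusted p = 0.127). Fat3a was called in no comparison.

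The 7 catenin-named genes held a contrast between the α-catenins. Ctnna2 encodes αN-catenin, the neural form, and ctnna1 αE-catenin, the form of epithelia. Ctnna2 read 7.90, 8.25, 8.18 and 8.42 in trunk, 9.46, 9.42, 9.35, 9.73 and 9.33 in all neurons, and 9.30 through 9.56 to 9.62 in V1. The neuron pools overlapped each other and lay wholly above trunk. They exceeded trunk by 1.27 in all neurons (SE 0.11, adjusted p = 3.27e-07) and by 1.34 in V1 (SE 0.11, adjusted p = 1.77e-07), and differed from each other by 0.07 (95% interval -0.15 to 0.28).

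Ctnna1 went the other way. Trunk read 8.83, 8.29, 8.52 and 8.44, all neurons 7.78, 7.88, 7.81, 7.26 and 7.36, and V1 7.20 through 7.88 to 8.08. Trunk lay wholly above the neurons. The difference from trunk was -0.90 in all neurons (SE 0.18, adjusted p = 0.000717) and -0.77 in V1 (SE 0.17, adjusted p = 0.00223). Between V1 and all neurons it was 0.13 (95% interval -0.21 to 0.48).

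The β-catenin genes overlapped across all 3 groups. Ctnnb1 had means of 10.50 ± 0.11 in V1, 10.32 ± 0.26 in all neurons and 10.34 ± 0.21 in trunk, and ctnnb2 means of 10.73 ± 0.26, 10.54 ± 0.15 and 10.49 ± 0.18. No comparison called either gene, and the 95% interval of the ctnnb2 difference ran from -0.03 to 0.52 for V1 against trunk and from -0.24 to 0.34 for all neurons against trunk. Without V1 array 3 the ctnnb2 difference of V1 from trunk was 0.32 and was called (adjusted p = 0.0461). With all-neuron arrays 4 and 5 alone the ctnnb1 difference of V1 from all neurons moved from 0.17 to 0.43 (adjusted p = 0.0334). The second ctnnb1 probe set was 0.35 higher in V1 than in trunk (adjusted p = 0.0226).

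Ctnnbip1 encodes a small protein that blocks β-catenin from binding Tcf factors. It read 9.56, 9.27, 9.46 and 9.48 in trunk, 10.09, 10.28, 10.18, 10.28 and 10.23 in all neurons, and 9.87 through 10.07 to 10.34 in V1. The neuron pools again lay wholly above trunk. Differences from trunk were 0.77 in all neurons (SE 0.10, adjusted p = 1.38e-05) and 0.68 in V1 (SE 0.10, adjusted p = 4.34e-05). V1 and all neurons differed by -0.09 (95% interval -0.29 to 0.10).

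Ctnnd1 encodes p120-catenin, which keeps cadherins at the cell surface. It was 0.90 higher in V1 than in all neurons (SE 0.24, adjusted p = 0.012), and all neurons were at -0.89 to trunk (SE 0.26, adjusted p = 0.0124). The all-neuron arrays read 5.88, 4.87, 4.85, 4.81 and 4.97, so array 1 alone reached the V1 range of 5.37 to 6.61 and the trunk range of 5.84 to 6.23. Without that array the V1 difference was 1.102 (adjusted p = 0.0018). With trunk arrays 3 and 4 alone the difference of all neurons from trunk was -0.78 (adjusted p = 0.101).

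Skin marker levels were 6.51 to 7.55 in V1 and 7.23 to 7.99 in trunk. In all neurons they were 7.21 in array 1 and 5.27 to 6.52 in arrays 2 to 5. Of the 10 skin genes, 4 (krt8, krt18a.1, cldnb and elf3) were higher in V1 than in all neurons. Between V1 and trunk, 1 skin gene was higher in V1 and 4 were lower, and ctnnd1 differed by 0.02 (adjusted p = 0.966). The part of skin cells in the ctnnd1 result was not tested. Ctnnbl1, which is named for its sequence and associates with the splicing machinery rather than with junctions, was called in no comparison.

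**Figure D4:**
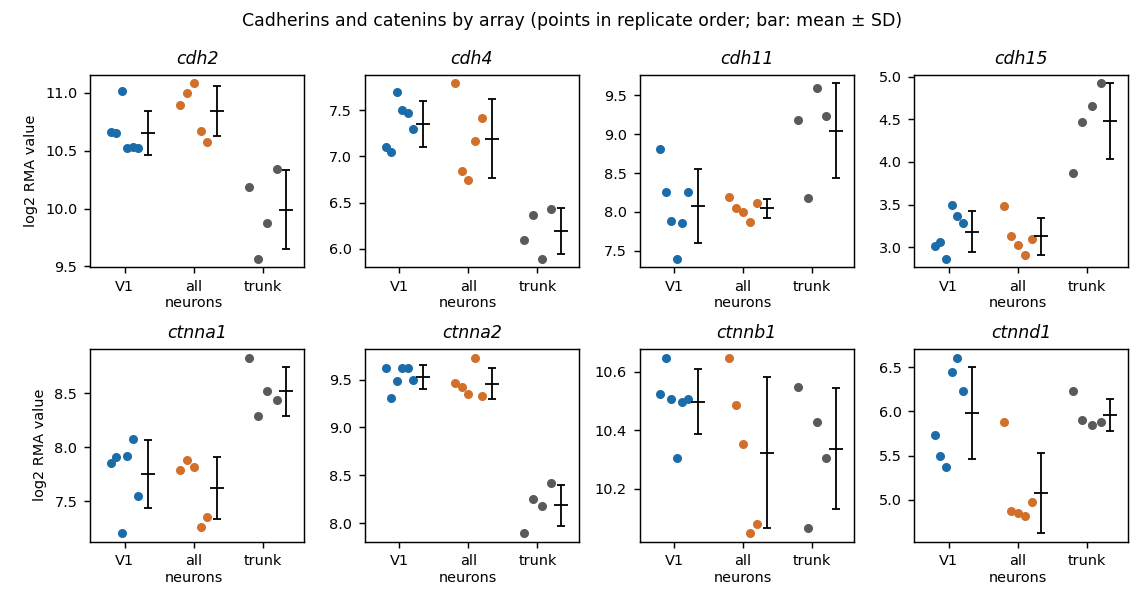
Log2 RMA value on each array (points, in replicate order) with mean ± SD (black bar) for 4 cadherins and 4 catenins in the 3 groups; each panel has its own vertical axis. Cdh2, cdh4 and ctnna2 lie higher in both neuron pools than in trunk, cdh15 and ctnna1 lie lower, the ctnnb1 groups overlap, and ctnnd1 is low in 4 of the 5 all-neuron arrays.

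All 4 contactins, lipid-anchored immunoglobulin proteins on axons, were higher in all neurons than in trunk, with a median difference of 1.35. Of the 4, 2 were lower in V1 than in all neurons. The shares of all genes called in these ways were 20.8% and 9.02%. Cntn5 (NB-2 in rodents) read 7.27, 7.30, 7.24, 8.09 and 7.86 in all neurons and 4.76, 4.98, 5.17 and 5.83 in trunk. In V1 it ran from 5.45 through 5.57 to 6.65, the highest value being array 3. All-neuron arrays lay wholly above the others, and V1 overlapped trunk. Cntn5 was 2.37 higher in all neurons than in trunk (SE 0.26, adjusted p = 2.86e-06), and V1 was at -1.79 to all neurons (SE 0.24, adjusted p = 5.41e-05).

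The V1 difference from trunk in cntn5, 0.57, was not called (adjusted p = 0.0843), and it moved to 0.79 (adjusted p = 0.0231) without trunk array 4 and to 0.40 (adjusted p = 0.15) without V1 array 3. Cntn1b, 1 of the contactin-1 paralogs, read 6.66, 6.07, 6.17, 6.95 and 6.98 in all neurons and 4.78, 4.81, 5.23 and 5.23 in trunk, and V1 ran from 5.26 through 5.54 to 5.95. These 3 groups did not overlap at all. All neurons exceeded trunk by 1.55 (SE 0.20, adjusted p = 9.71e-06), and V1 was at -1.01 to all neurons (SE 0.18, adjusted p = 0.000671). The V1 excess over trunk was 0.54 (SE 0.19, adjusted p = 0.0307), a call lost without V1 array 1 or 6 or trunk array 1 or 2 (adjusted p 0.0552 to 0.0979), and 0.33 (adjusted p = 0.35) with trunk arrays 3 and 4 alone.

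The paralog cntn1a was dimmer and moved less. It read 4.75, 4.87, 4.88, 5.45 and 5.30 in all neurons, 4.72, 4.42, 4.40 and 4.66 in trunk, and 4.56 through 4.89 to 4.99 in V1. All neurons lay just above trunk, and V1 overlapped both. The difference of all neurons from trunk was 0.50 (SE 0.14, adjusted p = 0.0108). V1 was at -0.23 to all neurons (95% interval -0.51 to 0.05), and at -0.55 (adjusted p = 0.0137) with all-neuron arrays 4 and 5 alone.

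Cntn2 (TAG-1, a guide of early axons) overlapped between the neuron pools. All neurons read 6.05, 5.86, 5.85, 5.98 and 6.04, V1 ran from 5.69 through 5.88 to 6.21, and trunk read 5.40, 4.81, 4.29 and 4.72. Trunk lay wholly below the neurons. Cntn2 exceeded trunk by 1.15 in all neurons (SE 0.17, adjusted p = 3.97e-05) and by 1.07 in V1 (SE 0.16, adjusted p = 6.59e-05). V1 and all neurons differed by -0.08 (95% interval -0.40 to 0.25).

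Alcama (neurolin, an immunoglobulin protein of growing retinal and motor axons) had a like pattern. Trunk read 8.03, 7.36, 7.40 and 8.34, all neurons 8.73, 8.57, 8.66, 8.90 and 8.87, and V1 8.13 through 8.53 to 9.00. All neurons lay above trunk, and V1 overlapped trunk array 4. The difference from trunk was 0.96 in all neurons (SE 0.21, adjusted p = 0.00148) and 0.79 in V1 (SE 0.20, adjusted p = 0.00557), and the second probe set had the same calls. With trunk arrays 3 and 4 alone the V1 difference was 0.70 (adjusted p = 0.0531).

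The NCAM and L1 genes, which are the best known axonal adhesion molecules of these families, were all below the median of all values, and their differences were small. Ncam1b read 3.54, 3.58, 3.40, 3.59 and 3.54 in all neurons, 3.19, 3.16, 3.14 and 3.06 in trunk, and 2.95 through 3.09 to 3.27 in V1. All-neuron arrays lay above the rest. The difference was 0.39 from trunk (SE 0.08, adjusted p = 0.00121), and V1 was at -0.42 to all neurons (SE 0.08, adjusted p = 0.00087).

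Its paralog ncam1a was called in no comparison, with readings of 4.89, 5.02, 5.06, 5.17 and 5.09 in all neurons, 4.94, 5.28, 4.94 and 4.96 in trunk, and 4.71 through 4.96 to 4.99 in V1. The 3 groups overlapped. Ncam2 read 3.99, 3.93, 4.09, 4.16 and 4.07 in all neurons, 3.70, 3.97, 3.92 and 3.89 in trunk and 3.58 through 3.70 to 4.04 in V1. V1 was at -0.27 to all neurons (SE 0.09, adjusted p = 0.0495). That call was lost without any 1 of the 5 all-neuron arrays or of V1 arrays 1, 2, 4 and 5 (adjusted p 0.0519 to 0.12). L1cama and l1camb were called in no comparison, with differences from -0.22 to -0.01.

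The 6 nectin, Cadm and Jam genes gave some of the largest differences. Cadm proteins (SynCAM or nectin-like molecules) bind across synapses and along axons. Cadm2a read 8.82, 8.45, 8.28, 9.08 and 9.13 in all neurons and 6.53, 6.30, 6.37 and 7.15 in trunk, and V1 ran from 6.55 through 6.90 to 7.18. All neurons lay more than 1 unit above every other array, and V1 and trunk overlapped. Cadm2a was 2.16 higher in all neurons than in trunk (SE 0.20, adjusted p = 5.05e-07), a 4.48-fold difference, and V1 was at -1.87 to all neurons (SE 0.18, adjusted p = 3.07e-06). V1 and trunk differed by 0.30 (95% interval -0.12 to 0.71, adjusted p = 0.242).

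Cadm3 differed between the neuron pools less clearly. All neurons read 9.57, 7.86, 7.95, 9.08 and 8.90, trunk read 6.27, 6.13, 6.19 and 6.63, and V1 ran from 6.85 through 7.96 to 8.47. Trunk lay wholly below the neurons. Cadm3 exceeded trunk by 2.36 in all neurons (SE 0.36, adjusted p = 6.2e-05) and by 1.48 in V1 (SE 0.35, adjusted p = 0.00301). V1 was at -0.89 to all neurons (95% interval -1.58 to -0.19, adjusted p = 0.0642), which was called without all-neuron array 2 (-1.09, adjusted p = 0.0282), all-neuron array 3 (-1.07, adjusted p = 0.0358) or V1 array 6 (-1.02, adjusted p = 0.0401).

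Cadm4 was higher in the neuron pools by like amounts. All neurons read 6.87, 6.57, 6.65, 7.35 and 6.97, trunk read 5.55, 5.70, 5.76 and 5.89, and V1 ran from 6.31 through 6.80 to 7.51. The excess over trunk was 1.16 in all neurons (SE 0.24, adjusted p = 0.00114) and 1.15 in V1 (SE 0.24, adjusted p = 0.0011). V1 and all neurons differed by -0.01 (95% interval -0.48 to 0.46). Of the Cadm genes, cadm2a alone was called between V1 and all neurons.

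Nectin3b, a nectin that links to actin through afadin, was the only gene of the 44 called lower in V1 than in both other groups. V1 arrays ran from 7.11 through 7.48 to 7.85, all neurons read 8.25, 8.65, 8.56, 8.47 and 8.44, and trunk read 8.33, 8.18, 8.21 and 8.42. No V1 array reached either group. V1 was at -0.98 to all neurons (SE 0.12, adjusted p = 3.53e-05) and at -0.79 to trunk (SE 0.13, adjusted p = 0.000182). The second probe set had -1.20 (adjusted p = 8.8e-06) and -0.67 (adjusted p = 0.00119). All neurons and trunk differed by 0.19 (adjusted p = 0.293) on the brighter probe set and by 0.52 (adjusted p = 0.00821) on the dimmer. The notochord and floor plate list was also lowest in V1, at 4.42 to 5.56 against 6.13 or more on every other array, with 9 of 10 genes lower than in all neurons and 6 of 10 lower than in trunk, and its part in the nectin3b result was not tested.

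Jam2a and jam3b encode junctional adhesion molecules that bind each other and are needed for muscle precursor fusion in zebrafish. Jam2a read 5.94, 6.20, 6.38 and 6.09 in trunk, 4.65, 4.82, 4.99, 4.76 and 4.86 in all neurons, and 5.27 through 5.39 to 5.52 in V1. The 3 groups did not overlap, with V1 between the others. The difference from trunk was -1.33 in all neurons (SE 0.10, adjusted p = 7.63e-08) and -0.76 in V1 (SE 0.10, adjusted p = 1.22e-05), and V1 was 0.58 above all neurons (SE 0.09, adjusted p = 0.000236).

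Of the 12 muscle genes, all were lower in both neuron pools than in trunk and 9 were lower in V1 than in all neurons. Mean levels of the vessel and red cell lists were lower in all neurons than in V1 and trunk. Of the 5 vessel genes, 4 were higher and 1 lower in V1 than in all neurons, and 4 were lower and 1 higher in all neurons than in trunk. The part of these cells in the jam2a result was not tested. Jam3b was at -0.41 in V1 relative to trunk (adjusted p = 0.0432), a call lost without any 1 of V1 arrays 3 to 6 or trunk arrays 2 to 4 (adjusted p 0.0543 to 0.128). Its second probe set had a V1 difference of 0.02, and the mean of both -0.20 (adjusted p = 0.573).

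Neuroligins sit on the receiving side of synapses and bind neurexins on the sending side. Nlgn4xa had the largest fall of the 44 genes from all neurons to V1. All neurons read 7.68, 6.97, 6.81, 7.60 and 7.72, trunk read 5.97, 5.52, 5.45 and 5.05, and V1 ran from 4.92 through 5.32 to 5.69. All-neuron arrays lay wholly above the rest, and V1 overlapped trunk. V1 was at -2.05 to all neurons (SE 0.20, adjusted p = 2.62e-06), a 4.15-fold difference, and all neurons exceeded trunk by 1.86 (SE 0.22, adjusted p = 4.96e-06). V1 and trunk differed by -0.19 (95% interval -0.64 to 0.25).

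The second nlgn4xa probe set repeated both calls, at -1.50 and 1.46. Nrxn2a, a neurexin, had a dim signal of 3.74 through 3.77 to 4.18 in V1, 3.47, 3.42, 3.48, 3.73 and 3.65 in all neurons and 3.34, 3.51, 3.48 and 3.32 in trunk. V1 lay just above the rest. It was 0.34 above all neurons (SE 0.10, adjusted p = 0.0239) and 0.48 above trunk (SE 0.11, adjusted p = 0.00215). The first call ended where any of all-neuron arrays 1 to 3, or of V1 arrays 5 and 6, was left out (adjusted p 0.0505 to 0.062), and the difference was 0.20 (adjusted p = 0.374) with all-neuron arrays 4 and 5 alone.

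Nlgn1 was called in no comparison. Neither was lrrn1, a leucine-rich repeat protein of neural tissue, whose V1 arrays spread from 5.48 to 7.48, and whose difference between V1 and all neurons moved from -0.63 (adjusted p = 0.168) to -0.90 (adjusted p = 0.0113) without V1 array 3.

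**Figure D5:**
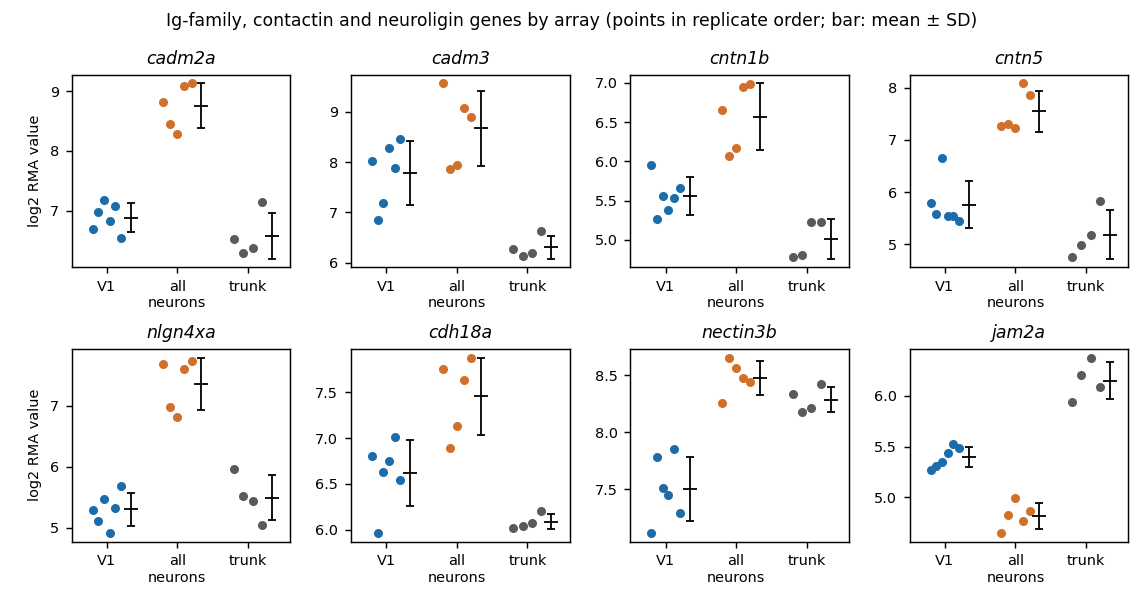
Log2 RMA value on each array (points, in replicate order) with mean ± SD (black bar) for 8 Ig-family, contactin, neuroligin and cadherin genes in the 3 groups; each panel has its own vertical axis. For cadm2a, cntn1b, cntn5 and nlgn4xa all 5 all-neuron arrays lie above every V1 and trunk array, nectin3b is lowest in V1, and jam2a is in 3 separate steps.

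Of the 9 genes called lower in V1 than in all neurons, 8 were also called with all-neuron arrays 4 and 5 alone, and ncam2 was not (-0.34, adjusted p = 0.109). In that setting V1 was at -2.36 for nlgn4xa, -2.22 for cadm2a, -2.21 for cntn5, -1.41 for cntn1b, -1.13 for cdh18a and -0.96 for nectin3b. Of 10 general neuronal markers, 4 (stmn1b, stmn2a, gap43 and snap25b) were lower in V1 than in all neurons, with a list median of -0.35, and all 10 were higher in each neuron pool than in trunk. Of 10 notochord and floor plate genes, 9 were lower in V1 than in all neurons, with a list median of -2.003. The part of these lists in the V1 differences was not tested.

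Partners of these molecules inside the cell were measured in part. Of 35 listed junction scaffolds and adaptors, 13 were on the array besides ctnnd1, and 2 were higher and 5 lower in all neurons than in trunk (15.4% and 38.5%, against 20.8% and 25.4% of all genes, with a median of -0.42). The same counts held for V1 against trunk (background 23.3% and 20.6%, median -0.19). The scaffold genes magi1a and magi1b were higher in both neuron pools, by 1.09 and 1.14 in all neurons and by 0.96 and 0.65 in V1. The desmosome-linked genes ppl and pkp1b were lower in both, by -1.46 and -0.62 in all neurons and by -2.46 and -0.50 in V1. Of the 10 skin genes, 9 were lower in all neurons than in trunk. In V1 4 of them were lower than in trunk and 1 was higher. Between V1 and all neurons, 4 skin genes were higher in V1 and none was lower (list median 1.00), whereas ppl lay further below trunk in V1. The part of skin cells in the ppl and pkp1b results was not tested.

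Synaptic scaffolds gave 13 measured genes of 39 listed. Against trunk, 5 were higher and 3 lower in all neurons (38.5% and 23.1%, against 20.8% and 25.4% of all genes), and 5 higher and 1 lower in V1 (38.5% and 7.69%, against 23.3% and 20.6%). The same 5 genes were higher in each: apba2b (1.87 in all neurons and 1.90 in V1), epb41l3a (2.03 and 1.72), lin7b (1.48 and 1.43), lin7c (0.60 and 0.88) and mpp2b (2.64 and 1.40). Mpp2b, a membrane-associated guanylate kinase protein, was also lower in V1 than in all neurons, by -1.24 (adjusted p = 3.41e-05). Epb41b, a band 4.1 protein, was 2.04 higher in V1 than in all neurons (adjusted p = 5.69e-05). The 6 red cell genes were higher there as well, with a list median of 3.82, and the part of red cells in the epb41b result was not tested.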

How the data were processed

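RNA of 6 V1, 5 all-neuron and 4 trunk sorts was hybridised to 1 array each. The deposited values are log2 intensities, and the submitters' processing notes name RMA and Affymetrix Expression Console as what the authors used. Software versions, the chip definition and a genome build were not given in the sources used here. RMA subtracts background, equalises the arrays' distributions and summarises probes, so a shift common to all genes is not seen. Of 15617 probe sets, 115 controls were left out. Symbols came from the platform annotation: 10795 probe sets had 1 symbol, 135 several and 4572 none. All 44 members matched a current gene with an unchanged symbol.

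Group means were fitted to all 15 arrays in limma 3.58.1 (R 4.3.3; lmFit and eBayes, 12 residual degrees of freedom, two-sided) and p-values adjusted over 15502 probe sets within each comparison. Intervals are 95%. The number of arrays limits the precision. The members, role groups, partner lists and marker lists were chosen with earlier results of these data known, so they give no independent support. Fuller values list each all-neuron and trunk array, and V1 arrays mostly by their lowest, median and highest value. They are given for the 8 largest called differences per comparison and direction (no overlap, higher mean at or above 5.52). They also cover called members of families of 5 or fewer and a/b paralog pairs with a call, 25 genes in all. The rest are given by ranges or means, and the all-neuron values of ctnnd1 were added after its values were seen. The fit was also run on simulated data with independent normal noise and known shifts, as a check of the code. Those data held no array effects and no mixing of cells, so the run cannot speak to either here. Alternatives were other priors, normalisations, filters, thresholds, probe set rules, array weights, replicate blocks and subsets of arrays. No sequence is shown, as none was used here. Plots were drawn with matplotlib 3.10.9.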

Additional observations from a re-analysis of the deposited data

Results flagged for a closer look

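In 14 of 132 gene and group combinations (10.6%, in 12 genes), 1 array lay far from the rest of its group by Dixon's test, and chance gives about 1 in 20. V1 array 3 accounted for 4: it was low for pcdh10a at 6.14 (others 7.48 to 7.74), and high for cntn5 at 6.65 (others 5.45 to 5.78), for cdh2 at 11.02 (others 10.53 to 10.66) and for pcdh18a at 7.51 (others 6.59 to 6.87).

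All-neuron array 1 accounted for another 4, all high. Its cdh17 level was 6.20 (others 4.08 to 4.26) and its ctnnd1 level 5.88 (others 4.81 to 4.97). For ctnnb2 it was 10.79 (others 10.45 to 10.52) and for ctnnbl1 8.03 (others 7.71 to 7.80).

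The other 6 lay on 6 different arrays. Cdh1 was high in all-neuron array 4 at 8.27, ctnnd1 in trunk array 1 at 6.23, fat3a in all-neuron array 5 at 4.68, l1cama in V1 array 5 at 3.76 and ncam1a in trunk array 2 at 5.28. Ctnnbl1 was low in V1 array 2 at 7.60. No cause was tested for any of these values.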

How the results depend on the processing

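No adhesion gene changed the direction of a called difference under any alternative run. The counts of called genes stayed within 1.5 times the reported ones under all alternatives but a test against a log2 difference of 0.5 and a threshold of 0.01. The test against 0.5 left 2 genes higher and 4 lower in V1 than in all neurons, 4 and 1 in V1 against trunk, and 9 and 2 in all neurons against trunk. At an adjusted p under 0.01, the genes higher in V1 than in all neurons numbered 3. With array weights, 8 genes were higher and 12 lower in V1 than in all neurons. Newly called higher in that setting were cdh1 (0.50, adjusted p = 0.0152) and ctnnb2 (0.31, adjusted p = 0.0293). Newly called lower were cdh2 (-0.33, adjusted p = 0.0475), lrrn1 (-1.01, adjusted p = 0.00749) and pcdh1b (-0.29, adjusted p = 0.0436). Leaving out each array in turn gave 4 to 6 genes higher and 8 to 11 lower in V1 than in all neurons, 13 to 16 and 6 to 7 for V1 against trunk, and 18 to 18 and 6 to 7 for all neurons against trunk. A filter that kept 8492 brighter probe sets kept 29 of the 44 genes, with 5 and 7, 15 and 5, and 15 and 6 called. Many of the single genes whose call changed with 1 array or subset are given in the report with their values, and the cause was not tested. Others were not given above. Jam3b in V1 against all neurons was called without V1 array 2 (-0.39, adjusted p = 0.0458). With all arrays its brighter probe set was at -0.29. The dimmer jam3b probe set went the other way, at 1.04, and was not called (adjusted p = 0.0582). Ctnnbl1 in V1 against trunk was called with trunk arrays 3 and 4 alone (0.33, adjusted p = 0.0487).

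The labels do not say whether the replicate numbers pair the samples. Deviations of same-numbered arrays correlated at -0.0714 to 0.356, -0.135 to -0.00981 and -0.0628 to 0.302 in the 3 comparisons. Arrays with different numbers were not correlated for reference, so these values cannot decide it. With the number as a replicate block, 5 genes were higher and 10 lower in V1 than in all neurons, 13 and 6 in V1 against trunk, and 18 and 6 in all neurons against trunk. As a random block the counts were 6 and 8, 16 and 7, and 18 and 6.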

Other observations

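Other cell surface adhesion proteins, outside the 44 genes, were measured for 17 of 71 listed. In all neurons 8 were higher and 6 lower than in trunk (47.1% and 35.3%, against 20.8% and 25.4% of all genes). In V1 8 were higher and 2 lower than in trunk (47.1% and 11.8%, against 23.3% and 20.6%), and 2 were lower than in all neurons (11.8%, against 9.02%). The immunoglobulin protein neuroplastin (nptna) was 2.44 above trunk in all neurons and 1.73 in V1, and the axonal protein gene islr2 1.85 and 1.05. Both were lower in V1 than in all neurons, by -0.70 (adjusted p = 0.0207) and -0.80 (adjusted p = 0.00269). Calsyntenin-1 (clstn1) was 1.37 and 1.16 above trunk, and the planar polarity cadherins dchs1b and celsr1a were 0.84 and 0.91 above trunk in all neurons and 1.01 and 0.77 in V1. The glycoprotein thy1 and the synaptic Ig protein sdk2b were below trunk in both pools, by -1.20 and -1.25 in all neurons and -1.15 and -1.15 in V1. The epithelial gene epcam was at -1.86 to trunk in all neurons (adjusted p = 0.0189). It is itself 1 of the 10 skin genes, of which 9 were lower in all neurons than in trunk. The part of skin cells in the epcam result was not tested.

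Within the V1 group, cadm4 read 6.31, 6.38 and 6.44 in arrays 1 to 3 and 7.17, 7.51 and 7.40 in arrays 4 to 6. Ctnnd1 read 5.73, 5.50 and 5.37 in the first of these sets and 6.44, 6.61 and 6.23 in the second. The split was not limited to these genes. Nrxn2a ran from 3.74 to 3.75 in the first set and 3.80 to 4.18 in the second, and jam2a from 5.27 to 5.35 and 5.43 to 5.52. Pcdh10b was higher in the first set, at 7.68 to 8.06 against 7.26 to 7.48. Cntn2, ctnnb2 and ctnnbip1 also separated, others such as cdh1 overlapped, and not every such gene is listed. The labels name no batch for these arrays.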
